A study of Zea mays with 18 samples.

Results

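The 200 transcripts described here are those that control maize plants raised most between the ear inflorescence and the ear. They were chosen by their measured values in the control libraries. Of 76612 transcript identifiers, 39715 had a mean normalized count of at least 10 over the 18 libraries, and these are called expressed transcripts here. Among those, the ratio of the mean control ear count plus 1 to the mean control ear inflorescence count plus 1 was ranked, and the 200 highest were taken. The height of these transcripts in control ear is therefore the rule and not a result. What the rule left free is how the transcripts behaved in the 2 transgenic events. The event libraries entered only through the mean of at least 10, and a mean filter of 10 on the 6 control libraries alone gave the same 200 transcripts, 200 of 200 shared.

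All plants were the maize hybrid NN6306, grown in the field in Illinois in 2012. Events 1 and 2 are separate insertions of ATHB17, an Arabidopsis gene for a class II homeodomain-leucine zipper (HD-Zip) protein, driven by the rice actin promoter and accompanied by a CP4 EPSPS marker for glyphosate selection. Each event is a single insertion line, so an event also stands for its insertion site and line history. Maize makes from this gene a protein that lacks the amino-terminal part. The control was the same hybrid without the transgene. Ear inflorescence, the young ear before silking, was taken at growth stage V16, and the ear was taken at silking, growth stage R1. Each of the 6 groups, namely event 1 ear, event 2 ear, control ear, event 1 ear inflorescence, event 2 ear inflorescence and control ear inflorescence, had 3 biological replicates.

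Between these stages the maize ear changes from a structure of meristems and young florets to one of mature florets with silks, glumes and expanding cob tissue. HD-Zip II proteins are plant transcription factors, known mostly as repressors of transcription. Among the 22 members with a functional name are defence proteins, enzymes of oxylipin and terpene synthesis, proteins of the cell wall, membrane channels and transporters, glutathione transferases and proteins of the response to water deficit. In bulk tissue a higher level in a group with more cells of a type and a higher level per cell cannot be told apart.

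The recovered counts summed to between 27293992 and 52651930 in a library. A read was counted on each of up to 10 transcripts, so these sums count assignments of reads to transcripts and exceed the number of reads. Values are the deposited normalized counts, which are whole reads multiplied by a factor for each library. Where no library of a group had more than 3 reads of a transcript, the transcript is called at the floor there, and a fold against such a group is a lower bound against 3 reads per library that covers counting error only. Tests are limma fits to all 18 libraries on log2 of the normalized count plus 1. A transcript was called where its raw p did not exceed 0.0001. Adjusted p-values (Benjamini-Hochberg) were taken over the 76612 transcripts. For a single transcript, 3 libraries against 3 cannot give a two-sided exact permutation p under 0.1. The tissue labels were checked against marker lists by the same calls. Of 21 inflorescence meristem transcripts, 4 were lower and 1 was higher in event 1 ear than in event 1 ear inflorescence, and 3 were lower and 1 was higher in event 2. Of 14 photosynthetic transcripts, 10 were higher and 1 was lower in event 1, and 6 were higher and 1 was lower in event 2. Of 16506 expressed transcripts with a RefSeq gene, 3659 were higher and 1620 lower in event 1, and 2314 were higher and 1029 lower in event 2, so most meristem markers did not separate the tissues by this test. Event 2 ear replicate 2 stood nearest to the inflorescence libraries of all ear libraries, at -58.4 on a first principal component that held 78.1% of the variance.

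A name beyond the identifier was at hand for few of the 200. The RefSeq genes of the assembly Zm-B73-REFERENCE-NAM-5.0 matched 127 of the 200, and most of these carry a locus number alone. Gene descriptions were not at hand to group them by, so all 22 transcripts whose symbol or synonym carries a functional name were taken. They were chosen after their values had been seen. The identifiers without such a name are given no role here.

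In the control plants, which set the choice, the ratio ran to 1040 for GRMZM2G104616. This transcript had 8343, 6666 and 8520 normalized counts in control ear, against 5.61, 10 and 3.98 in control ear inflorescence. GRMZM2G121308 followed with a ratio of 924 and GRMZM2G118873 with 828. At the lower edge the ratio was 22.17 for GRMZM2G044947, 22.16 for GRMZM2G141762 and 22.15 for GRMZM5G802646, the last inside. Just outside stood GRMZM2G020523 at 22.06, GRMZM2G167187 at 22.05 and GRMZM2G176595 at 22.04, so no gap marks the edge of the set. The ratio weighs the lowest counts: 70 of the 200 were at the floor in control ear inflorescence, 27 of them with no read in any of its libraries. With 10 in place of 1 added to each mean, 117 of the 200 were chosen again. The place of 1 transcript rests on 1 library, since GRMZM2G338160, seventh by ratio, had 78.5, 13.2 and 684 normalized counts in control ear.

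The 200 transcripts took a small share of the read assignments, and nearly all of that share was in the ear. They held between 1.06% and 1.32% of the assignments in event 1 ear, between 0.744% and 1.08% in event 2 ear, and between 0.728% and 0.781% in control ear. In ear inflorescence the share was between 0.0134% and 0.0425% in event 1, between 0.0241% and 0.0517% in event 2, and between 0.0162% and 0.0350% in control. All 200 had more than 3 reads in each of the 9 ear libraries. In the inflorescence libraries between 93 and 132 of them passed 3 reads, both extremes being event 1 libraries.

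**Figure D1:**
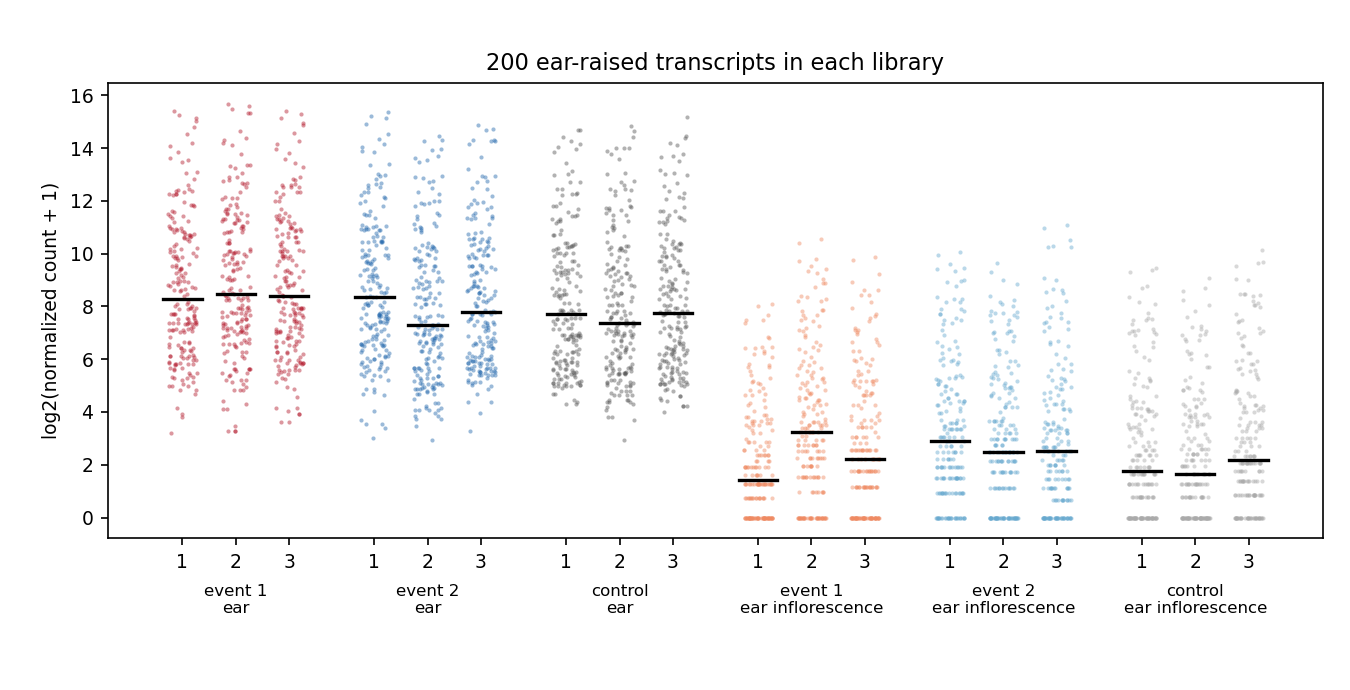
Normalized counts of the 200 transcripts in each of the 18 libraries, as log2 of the count plus 1 on the vertical axis, with 1 point per transcript, replicate numbers on the horizontal axis and a black bar at each library's median. The ear libraries lie far above the inflorescence libraries in all 3 genotypes, and event 2 ear replicate 2 and event 1 ear inflorescence replicate 1 have the lowest medians of their groups.

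In event 1 the whole set was again high in the ear. Of the 200 transcripts, 194 were called higher in event 1 ear than in event 1 ear inflorescence and none was called lower. In all 200 the 3 ear libraries lay above the 3 inflorescence libraries. Over all transcripts 8.46% were called higher in this comparison, and 15.2% of the expressed transcripts. Every ear library lay above every inflorescence library for 33.6% of the expressed transcripts. The median log2 difference of the 200 was 5.75, with quartiles at 5.10 and 6.64, against a median of 0.03 over the expressed transcripts. In event 1 ear inflorescence 63 of the 200 were at the floor.

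Event 2 gave nearly the same count with a lower median difference. There 186 of the 200 were called higher in event 2 ear than in event 2 ear inflorescence and none lower by limma, against 5.18% called higher over all transcripts and 9.54% over the expressed ones. The groups did not overlap for 193 of the 200, against 28.4% of the expressed transcripts. The median log2 difference was 5.05, with quartiles at 4.49 and 5.75, against -0.03 over the expressed transcripts. Both counts depend on a spread shared over the 6 groups. When only the 6 libraries of an event were fitted, 83 of the 200 were called higher in event 1, against 1.25% of all transcripts, and 59 in event 2, against 0.850%. On recovered reads edgeR called 195 of the 200 higher in event 2 ear and 3 lower, namely GRMZM2G127106, GRMZM2G146551 and GRMZM2G181202, against 5.47% of all transcripts called lower.

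The mean filter could in principle favour members that are high in the events. Of the 200, 150 would have passed a mean of 10 over the 18 libraries with every event library at 0, and the other 50 needed counts from the event libraries as well. All 150 were called higher in event 1 ear and 144 of the 150 in event 2 ear. Of the 50, 44 were called in event 1 and 42 in event 2.

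**Figure D2:**
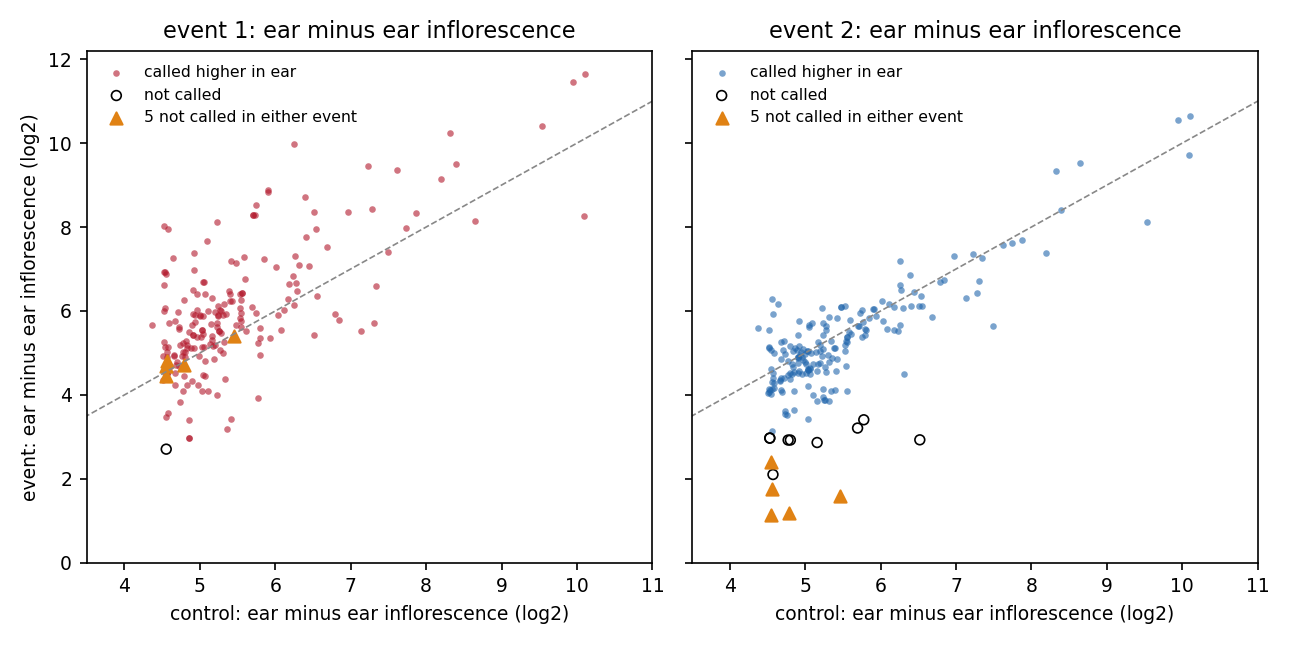
Log2 difference between ear and ear inflorescence for each of the 200 transcripts, in event 1 (left) and event 2 (right) on the vertical axis against the same difference in control, which chose the transcripts, on the horizontal axis. The dashed line marks equal differences, open circles and orange triangles are transcripts not called, and the triangles are the 5 not called in either event, which lie near the line in event 1 and below it in event 2.

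The 10 transcripts with the highest control ratio were called higher in ear in both events, with 1 exception in event 2. GRMZM2G121308 had 5547, 8615 and 6464 normalized counts in event 1 ear, against 0, 8.53 and 0 in event 1 ear inflorescence. In event 2 it had 6617, 2270 and 3292 in ear, against 11, 0 and 0 in ear inflorescence. Its log2 difference was 11.64 ± 0.85 (SE) in event 1, at an adjusted p of 1.1e-08, and 10.65 ± 0.85 in event 2, at 6.4e-08. GRMZM2G118873 had almost the same counts as GRMZM2G121308 in every library, and both identifiers may share reads.

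GRMZM2G104616, first in control, differed less in event 1. It had 3971, 4406 and 6170 normalized counts in event 1 ear, against 0.690, 86.2 and 24.2 in event 1 ear inflorescence, a ratio of means of 131. In event 2 it had 7350, 6762 and 7933 in ear, against 11, 6.94 and 5.90 in ear inflorescence, a ratio of 924. The spread in event 1 ear inflorescence is wide, and the tissue differences of the 2 events, 8.26 and 9.72 on the log2 scale, were not called different (limma adjusted p 0.83).

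GRMZM2G036203 had 2724, 3803 and 2750 normalized counts in event 1 ear, against 1.39, 3.79 and 0 in event 1 ear inflorescence. In event 2 the counts were 2582, 1368 and 1810 in ear, against 3.67, 6.94 and 7.08 in ear inflorescence. The tissue difference was 10.40 ± 0.44 in event 1 and 8.12 ± 0.44 in event 2 on the log2 scale. GRMZM2G009465 was at the floor in all inflorescence groups. Its ear means stood at least 693-fold higher in event 1 and at least 360-fold higher in event 2 than 3 reads per library. GRMZM2G104945, GRMZM2G067315 and GRMZM2G049882, the other places among the 10 highest ratios, had tissue differences of 9.50, 8.34 and 9.36 in event 1 and of 8.40, 7.70 and 7.56 in event 2.

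The exception is GRMZM2G338160. It had 8.32, 160 and 52.0 normalized counts in event 1 ear and 25, 10.1 and 8.80 in event 2 ear, against the control ear values given above. Its ear inflorescence libraries held 3 reads or fewer throughout. The event 1 ear mean was at least 25.8-fold and the event 2 ear mean at least 5.48-fold above 3 reads per library, and it was called in event 1 (adjusted p 3.8e-04) but not in event 2 (adjusted p 0.046). In event 1 the call was lost when event 1 ear replicate 2 or 3, or any event 1 ear inflorescence library, was left out.

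The defence proteins ranged widely in level. GRMZM2G005633 (chiB), a chitinase, which cuts the chitin of fungal cell walls, had 28849, 41224 and 40256 normalized counts in event 1 ear, against 38.1, 527 and 99.1 in event 1 ear inflorescence. In event 2 it had 36406, 22785 and 27398 in ear, against 310, 9.25 and 16.5 in ear inflorescence. The ears of the 2 events overlapped, and the inflorescence libraries of each event spread more than 10-fold. Another chitinase, GRMZM2G051943 (chiA), ran from 2907 to 4337 in event 1 ear and from 2247 to 3855 in event 2 ear. Its tissue differences were 7.97 ± 0.62 and 7.62 ± 0.62 on the log2 scale. GRMZM2G402631 (PR-5), a thaumatin-like protein of the pathogenesis-related class, had 480, 1089 and 901 normalized counts in event 1 ear, 564, 78.3 and 282 in event 2 ear, and 230, 120 and 259 in control ear. In ear inflorescence PR-5 was at the floor in both events.

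The family was then counted as a whole, members of the set included. Of 6 expressed chitinase and pathogenesis-related transcripts, 6 were called higher in event 1 ear and 4 in event 2 ear, and none lower. Of these 6, 3 are members of the set, so the count is not independent of the choice. Among the 16506 expressed transcripts with a RefSeq gene, 3659 were called higher in event 1 ear and 2314 in event 2 ear. The family lists were drawn from gene symbols after values had been seen.

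Lipoxygenases start the synthesis of oxylipins, jasmonate among them, from fatty acids. GRMZM2G156861 (lox1) had the highest mean of the 200 in control ear. It had 36168, 41181 and 31621 normalized counts in event 1 ear, 23523, 20251 and 19814 in event 2 ear, and 26503, 25506 and 37321 in control ear. Event 1 ear lay above event 2 ear without overlap, but the difference of 0.77 ± 0.32 on the log2 scale was not called (limma adjusted p 0.88). GRMZM2G106748 (lox12) was a weakly expressed relative, with 133, 152 and 143 in event 1 ear, 106, 159 and 106 in event 2 ear, and 104, 96.4 and 96.1 in control ear. The 11 expressed lipoxygenase transcripts include 2 members of the set. Of the 11, 8 were called higher in ear in event 1 and 8 in event 2, and none lower. Of the 16506 expressed transcripts with a RefSeq gene, 3659 were called higher in event 1 and 2314 in event 2.

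A pair of members belongs to the synthesis of volatile terpenes. GRMZM2G074309 (TPS5), a terpene synthase, had 93.9, 219 and 87.1 normalized counts in event 1 ear, 95.2, 21.2 and 56.8 in event 2 ear, and 32.8, 15.8 and 50.7 in control ear. GRMZM2G102079 (CYP92C5), a cytochrome P450 that forms homoterpenes in maize, had 44.0, 47.8 and 57.6 in event 1 ear, 74.9, 31.3 and 44.8 in event 2 ear, and 35.1, 11.9 and 17.9 in control ear. CYP92C5 had no read in any of the 9 inflorescence libraries. Its ear mean was at least 17.5-fold in event 1 and at least 18.9-fold in event 2 above 3 reads per library. The 10 expressed terpene synthase transcripts include 1 member of the set. Of the 10, 3 were called higher in ear in event 1 and 2 in event 2, and none lower. These counts are near the share over the expressed transcripts with a RefSeq gene.

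Proteins of the cell wall were led by GRMZM2G339122 (expa1), an alpha-expansin, which loosens walls during growth. It had 11421, 9804 and 14543 normalized counts in event 1 ear, 14881, 11987 and 13105 in event 2 ear, and 11076, 12159 and 13323 in control ear. These 3 ear groups overlapped, and its tissue difference was 4.80 ± 0.31 in event 1 and 4.50 ± 0.31 in event 2 on the log2 scale. The 15 expressed expansin transcripts include 3 members of the set. Of the 15, 10 were called higher in ear in event 1 and 8 in event 2, and none lower. The same calls took in 3659 and 2314 of the 16506 expressed transcripts with a RefSeq gene. GRMZM5G814718 (Laccase-13), named for enzymes that couple phenols into lignin, had 136, 217 and 205 normalized counts in event 1 ear, 158, 50.3 and 57.6 in event 2 ear, and 38.6, 35.6 and 26.4 in control ear.

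Channels and transporters make up another group. The tonoplast aquaporin GRMZM2G146627 (TIP4-3), a water channel of the vacuole membrane, had 973, 1366 and 1308 normalized counts in event 1 ear, against 1.39, 4.74 and 4.83 in event 1 ear inflorescence. In event 2 it had 955, 473 and 742 in ear, against 14.7, 11.6 and 4.72 in ear inflorescence. The ratio of means was 333 in event 1 and 70.1 in event 2, and the difference between the 2 tissue effects, 2.06 ± 0.56 on the log2 scale, had a raw p of 0.0015 and was not called (adjusted p 0.68). Its relative GRMZM2G093090 (TIP4-4) had ratios of 31.3 and 22.1. The phosphate transporter GRMZM2G112377 (pht7) had ratios of 27.6 in event 1 and 23.5 in event 2, and its ear values overlapped in all 3 genotypes. The 10 expressed tonoplast aquaporin transcripts include 2 members of the set. Of the 10, 8 were called higher in ear in event 1 and 5 in event 2. None of 9 plasma membrane aquaporin transcripts was among the 200, and 7 were called higher in ear in event 1 and 2 in event 2. Only 127 of 16506 expressed transcripts with a RefSeq gene were among the 200, so this absence says little. Of those 16506, 3659 were called higher in ear in event 1 and 2314 in event 2. The event 2 count of the plasma membrane aquaporins is near that share.

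The response to water deficit is represented by GRMZM2G079440 (rab17), a dehydrin induced by abscisic acid. It had 780, 821 and 759 normalized counts in event 1 ear, 369, 314 and 299 in event 2 ear, and 221, 177 and 339 in control ear. Event 1 ear lay above all other ear libraries. Its tissue difference was 7.39 ± 0.46 in event 1 and 5.16 ± 0.46 in event 2, and the difference between them, 2.23 ± 0.65, had a raw p of 0.0028 and was not called (adjusted p 0.74). GRMZM2G085924 (hsbp1), which encodes a protein that binds heat shock factors, had 18642, 21399 and 19787 in event 1 ear, 18234, 13400 and 19838 in event 2 ear, and 15847, 16293 and 13894 in control ear. Event 1 lay above control without overlap.

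The remaining named members varied in how far event 1 ear stood from control ear. The glutathione transferase transcripts GRMZM2G096247 and GRMZM2G126763 (gst9), whose products join glutathione to toxic compounds, had ratios of ear to ear inflorescence of 29.4 and 20.4 in event 1 and of 24.8 and 19.7 in event 2. GRMZM5G813651 (NAC95), of the NAC family of transcription factors, had 163, 157 and 135 normalized counts in event 1 ear, 140, 126 and 116 in event 2 ear, and 139, 127 and 131 in control ear. GRMZM2G119755 (CNR7), of the cell number regulator family, had 353, 701 and 451 in event 1 ear, 428, 157 and 233 in event 2 ear, and 186, 227 and 246 in control ear. GRMZM2G043521 (OBAP2A), of an oil body-associated family, was lowest in event 1 ear replicate 2, with 8.81 normalized counts against 38 and 45 in the other event 1 ears. The 22 expressed NAC transcripts include 1 member of the set. Of the 22, 7 were called higher and 1 lower in ear in event 1, and 4 higher and 1 lower in event 2. No transcript with a homeobox symbol, the class to which the transgene's product belongs, was among the 200. Of 16506 expressed transcripts with a RefSeq gene only 127 were, so this absence among 20 says little. Of 20 expressed homeobox transcripts, 4 were called higher and 3 lower in event 1, and 2 higher and 3 lower in event 2. For NAC and homeobox transcripts the counts of higher calls are near the share over the expressed transcripts with a RefSeq gene.

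**Figure D3:**
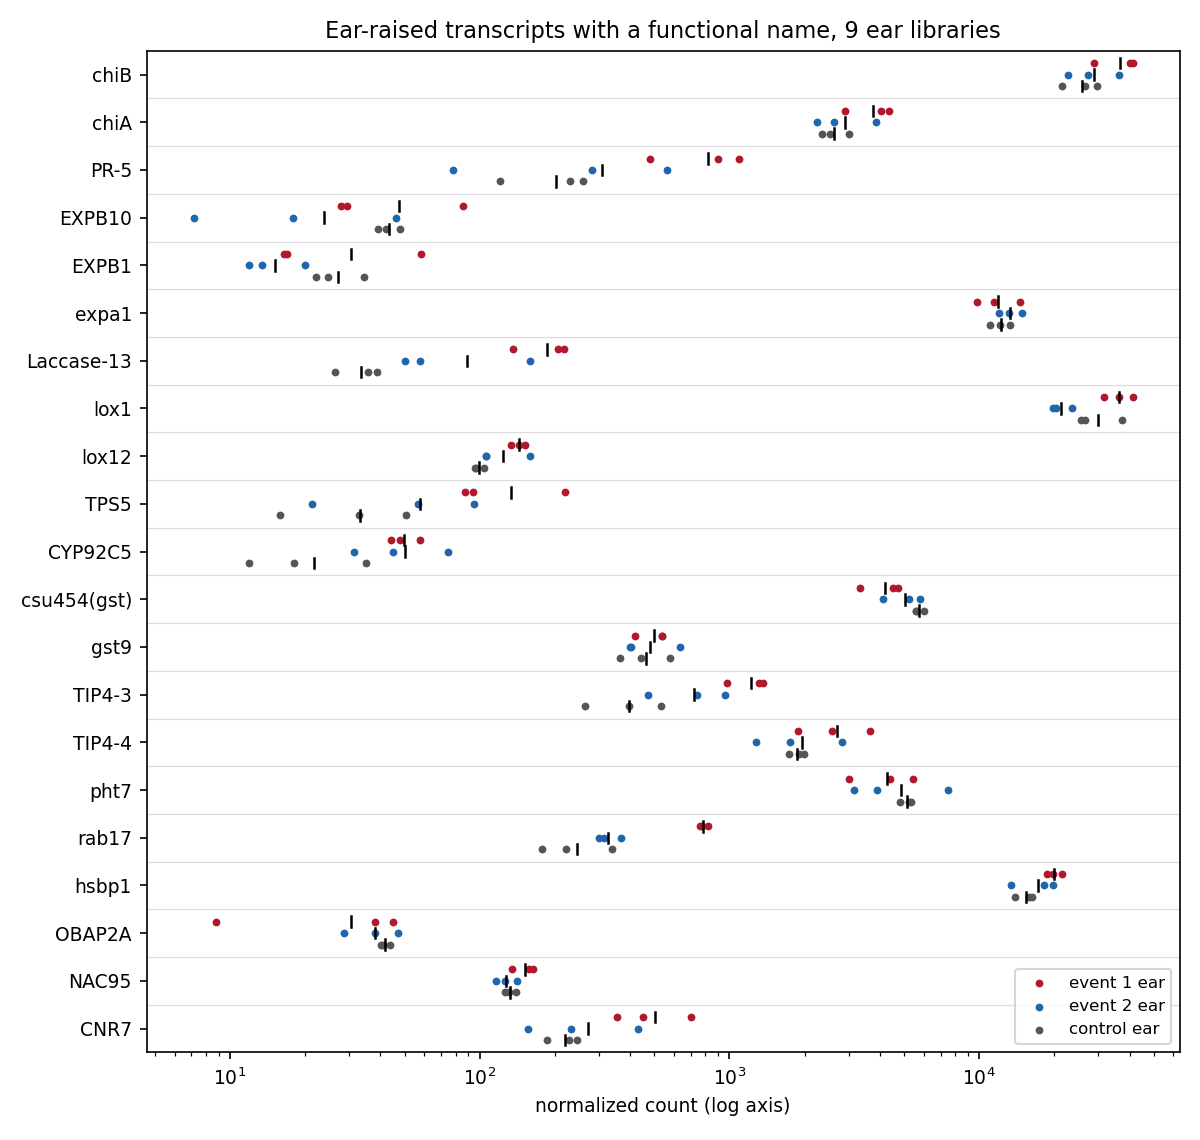
Normalized counts of 21 ear-raised transcripts with a functional name in the 9 ear libraries, on a log axis, with 1 point per library, event 1 above event 2 above control within each row, and a short bar at each group mean. The points of event 1 lie to the right of control for rab17, Laccase-13, TIP4-3, CNR7 and PR-5, and the 3 groups overlap for expa1 and gst9.

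After lox1 and chiB, the highest means in control ear belonged to GRMZM2G099454, GRMZM5G854138 and GRMZM2G063431. GRMZM5G854138 had 38977, 46228 and 42991 normalized counts in event 1 ear, 38479, 19582 and 29972 in event 2 ear, and 21689, 16531 and 18956 in control ear. GRMZM2G099454, which matches 2 RefSeq genes, had 32989, 49744 and 29791 in event 1 ear, 41932, 15993 and 20142 in event 2 ear, and 18432, 21670 and 22351 in control ear. In both, event 2 ear replicate 1 was near event 1 and event 2 ear replicate 2 was near or below control.

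The 5 members that neither event called shared a pattern in 1 library. They are GRMZM2G127106 (EXPB10) and GRMZM2G146551 (EXPB1), beta-expansins of pollen that are known as grass pollen allergens, and GRMZM2G181202, GRMZM2G419209 and GRMZM2G137037. EXPB10 had 85.6, 27.7 and 29.5 normalized counts in event 1 ear, 7.14, 17.9 and 46.4 in event 2 ear, and 48.0, 42.2 and 39.1 in control ear. In ear inflorescence EXPB10 had 0, 268 and 0 in event 2 and no read in the event 1 and control libraries. EXPB1 had 58.2, 16.4 and 16.9 in event 1 ear, 11.9, 13.4 and 20 in event 2 ear, and 24.6, 34.3 and 22.2 in control ear. In ear inflorescence EXPB1 had 0, 332 and 0 in event 2 and no read elsewhere.

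The other 3 members had the same pattern, with 302, 132 and 45.1 normalized counts in event 2 ear inflorescence replicate 2 for GRMZM2G181202, GRMZM2G419209 and GRMZM2G137037, and no read in the other 8 inflorescence libraries. GRMZM2G181202 and EXPB1 had nearly the same counts in all libraries, so they may share reads. For all but GRMZM2G137037 of these 5 the direction in event 2 depends on the scale. The mean of event 2 ear was below that of event 2 ear inflorescence, with a ratio of 0.137 for EXPB1, while the mean of the log2 values was above it by 1.18. On recovered reads edgeR gave a log2 difference of -2.76 for EXPB1 and DESeq2 gave -2.87. Without event 2 ear inflorescence replicate 2 all 5 were called higher in event 2 ear, with log2 differences between 3.88 and 4.28, and 188 of the 200 were called in place of 186. In event 1 all 5 had reads in each ear library and none in ear inflorescence. The limma spread is shared by all groups, so event 2 ear inflorescence replicate 2 enters the event 1 test too. For EXPB10 the SE was 1.35 in both events. On recovered reads edgeR called all 200 higher in event 1 ear, these 5 among them.

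**Figure D4:**
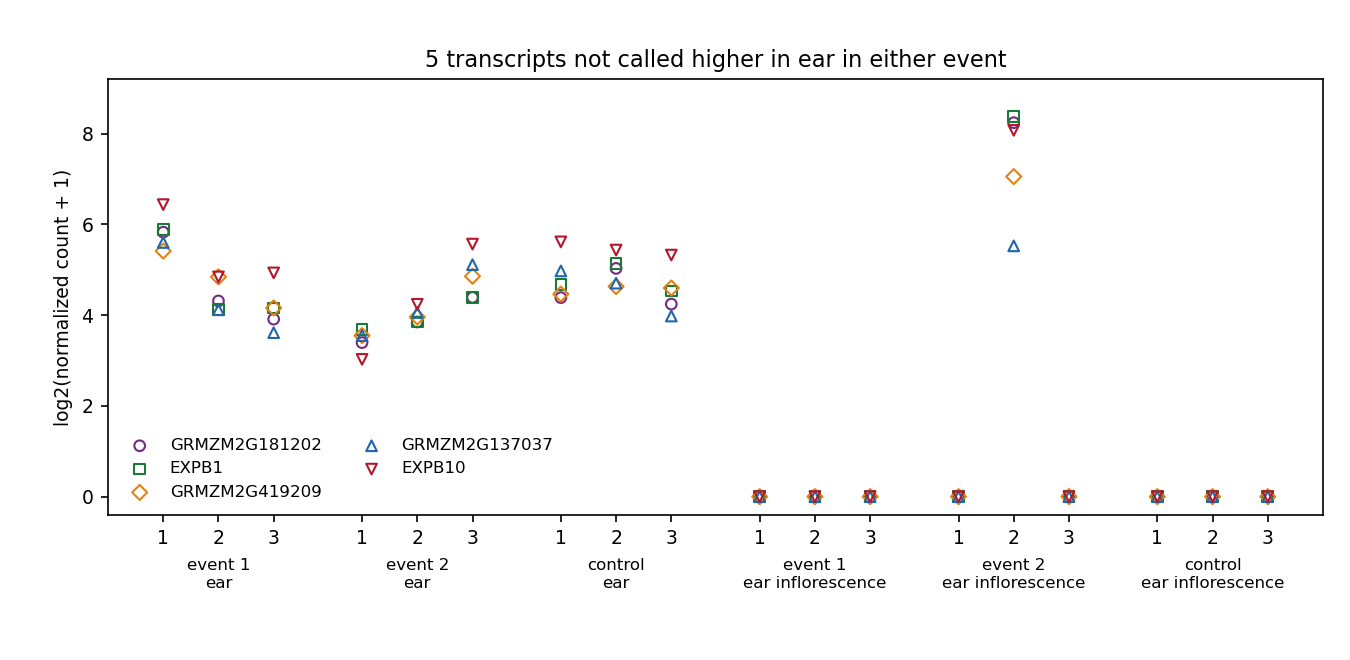
Log2 of the normalized count plus 1 for the 5 transcripts not called higher in ear in either event, in each of the 18 libraries, with 1 symbol per transcript and replicate numbers on the horizontal axis. All 5 are at 0 in 8 inflorescence libraries and stand above their event 2 ear values in event 2 ear inflorescence replicate 2.

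Some pollen markers outside these 5 members were also high in event 2 ear inflorescence replicate 2. Of 13 pollen symbols listed, exg1, which is high in all libraries, was left out. Of the other 12, 7 matched a transcript, EXPB1 and EXPB10 among them. Their summed normalized count was 1005 in that library. It was at most 5.73 in any event 1 or control ear inflorescence library. In the 1005, EXPB1 held 332 and EXPB10 268, so the sum is partly made of these members. Outside the set, expb9 had 310, mgs1 68.2 and expb11 24.3 there, while ms8 had 2.31 and ms26 had 0. In the ears the sum was between 81.8 and 220 in event 1, between 38.1 and 96.8 in event 2, and between 85.5 and 115 in control. The part of pollen in the values of the 5 members was not tested.

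Apart from these 5, event 1 missed the call for 1 member and event 2 for 9. GRMZM2G018366 was the 1 in event 1, with 13.1, 10.1 and 15.5 normalized counts in event 1 ear, against 1.39, 2.84 and 0 in event 1 ear inflorescence. It is also among the members that were lower in event 1 ear than in control ear, where it had 30.4, 48.8 and 35.9. In event 2, GRMZM2G114945 and its neighbour GRMZM2G050131 (Natterin-4), which had nearly the same counts, were lifted in 1 ear inflorescence library. Natterin-4 had 895, 193 and 371 normalized counts in event 2 ear, against 19.3, 215 and 29.5 in event 2 ear inflorescence. The high value in ear inflorescence was again in replicate 2, as it was for GRMZM2G025175 at 76.3 against 1.84 and 8.26 in the other event 2 ear inflorescence libraries.

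Event 1 ear and event 2 ear were then compared, groups that the rule did not use. The set leaned towards event 1. The log2 difference was above 0 for 163 of the 200, with a median of 0.53, against a median of 0.03 and 55.1% above 0 among the expressed transcripts. Limma called none of the 200, against 0.0548% of all transcripts in either direction. At an unadjusted p under 0.05, 28 of the 200 were higher in event 1 and 1 was lower, against 5.27% of all transcripts in either direction. On recovered reads edgeR called 29, against 0.227%, and DESeq2 called 1, against 0.0365%. The median was 0.32 and 151 were above 0 without event 2 ear replicate 2. Every event 1 ear lay above every event 2 ear for 54 of the 200, against 9.18% of the expressed transcripts, and below it for 5, against 4.29%. Without event 2 ear replicate 2, 55 of the 200 lay above the other event 2 ears, against 12.7%.

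The member with the smallest p was GRMZM2G141584. It had 208, 322 and 221 normalized counts in event 1 ear, against 156, 28 and 92.8 in event 2 ear. The difference of 1.71 ± 0.53 on the log2 scale had a raw p of 0.0044 and an adjusted p of 0.71. GRMZM2G119150 was next, with 160, 397 and 270 in event 1 ear, against 203, 6.71 and 64.0 in event 2 ear, a difference of 2.47 ± 0.83 (raw p 0.0081, adjusted p 0.78). Its groups overlapped, because event 2 ear replicate 1 was among the event 1 values. Both were at the floor in all inflorescence groups.

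In ear inflorescence the median was below 0, and this rested on 1 library. The log2 difference of event 1 minus event 2 was above 0 for 65 of the 200, with a median of -0.22, against 51.2% above 0 and a median of 0.01 among the expressed transcripts. Limma called none, against 0.0640% of all transcripts, with 30 at an unadjusted p under 0.05 against 4.93%, and edgeR called 21, against 0.418%, and DESeq2 2, against 0.0535%. Without event 1 ear inflorescence replicate 1 the median was 0.04 and 102 were above 0, without replicate 2 of that group it was -0.61, and without event 2 ear inflorescence replicate 1 it was -0.09. Every event 1 library lay above every event 2 library for 2 of the 200, against 2.62%, and below for 4, against 2.67%. Most of these values are near the floor.

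The tissue difference itself was larger in event 1 than in event 2 for 164 of the 200, with a median difference of 0.87 on the log2 scale, against 53.6% and a median of 0.04 among the expressed transcripts. Limma called none of the 200 in this test of the interaction, against 0.0183% of all transcripts, with 42 at an unadjusted p under 0.05 against 5.97%. On recovered reads, edgeR called 29, against 0.402%, and DESeq2 called 2, against 0.0144%. The smallest p belonged to GRMZM2G358540 and GRMZM5G894808, which had nearly identical counts in all libraries. GRMZM2G358540 had 391, 524 and 424 normalized counts in event 1 ear, against 0, 1.90 and 0 in event 1 ear inflorescence. In event 2 it had 324, 97.3 and 208 in ear, against 1.84, 5.78 and 1.77 in ear inflorescence. The difference between the tissue effects was 2.64 ± 0.65, at a raw p of 6.9e-04 and an adjusted p of 0.68. The lean was smaller without the libraries that stood apart. Without event 2 ear replicate 2 and event 1 ear inflorescence replicate 1, the median difference over the 200 was 0.21 and 120 were above 0. It was 0.56 without event 2 ear replicate 2 alone, and without event 1 ear inflorescence replicate 1 alone 0.47.

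The comparisons with control share the control libraries with the rule, which took transcripts that were high in control ear and low in control ear inflorescence. They are given as a description, and the choice by itself favours values below 0 in the ear and above 0 in the ear inflorescence. In event 1 ear the values went the other way. The log2 difference to control was above 0 for 164 of the 200, with a median of 0.66, against a median of 0.03 and 55.1% above 0 among the expressed transcripts. At an unadjusted p under 0.05 there were 62, against 6.76% of all transcripts. All 3 event 1 ears lay above all 3 control ears for 117 of the 200, against 12.5% of those transcripts, and below for 10, against 7.54%. Counting transcripts with alike counts once, 107 of 186 lay above. Of the 150 members that needed no event counts to pass the mean filter, 94 lay above.

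Limma called 3 of the 200 higher in event 1 ear than in control ear, against 0.128% of all transcripts in either direction. GRMZM2G141584, already named, had 208, 322 and 221 normalized counts in event 1 ear, against 32.8, 13.2 and 27.4 in control ear, a log2 difference of 3.37 ± 0.53 (adjusted p 0.017). Laccase-13 (GRMZM5G814718) differed by 2.42 ± 0.46 (adjusted p 0.057). GRMZM2G009465 had 1732, 2358 and 1837 in event 1 ear, against 767, 290 and 262 in control ear, and differed by 2.33 ± 0.47 (adjusted p 0.073). With each of the 6 event 1 and control ear libraries left out in turn, GRMZM2G141584 was called in 6 of 6 fits, GRMZM2G009465 in 1 of 6, without control ear replicate 1, and GRMZM5G814718 in 0 of 6, so that the count of calls was between 1 and 2. On recovered reads edgeR called 72 of the 200 in this comparison, against 0.604% of all transcripts, and DESeq2 called 21, against 0.211%, and limma with a pseudocount of 0.1 called none.

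In event 2 ear the set stood close to control. The log2 difference was above 0 for 143 of the 200, with a median of 0.19, against 48.7% above 0 and a median of -0.01 among the expressed transcripts. This lean rested on 1 library. The median was -0.0019 and 99 were above 0 without event 2 ear replicate 1, and without replicate 2 it was 0.36 and 165 were above 0. Limma called none, against 0.0444% of all transcripts. At an unadjusted p under 0.05 there were 7 of the 200, against 3.82%, which is near the background. EdgeR called 11, against 0.150%, and DESeq2 0, against 0.0352%. The groups separated upwards for 4 of the 200, against 3.44%, and downwards for 6, against 4.96%. The 3 event 2 ears differed among themselves. The median log2 difference of the 200 to the control ear mean was 0.57 in replicate 1, -0.19 in replicate 2 and 0.19 in replicate 3, where the event 1 ears had 0.57, 0.89 and 0.70. Event 2 ear replicate 1 was the highest of its group for 160 of the 200 and replicate 2 the lowest for 156. Over the expressed transcripts these libraries were highest for 36.3% and lowest for 43.2%.

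**Figure D5:**
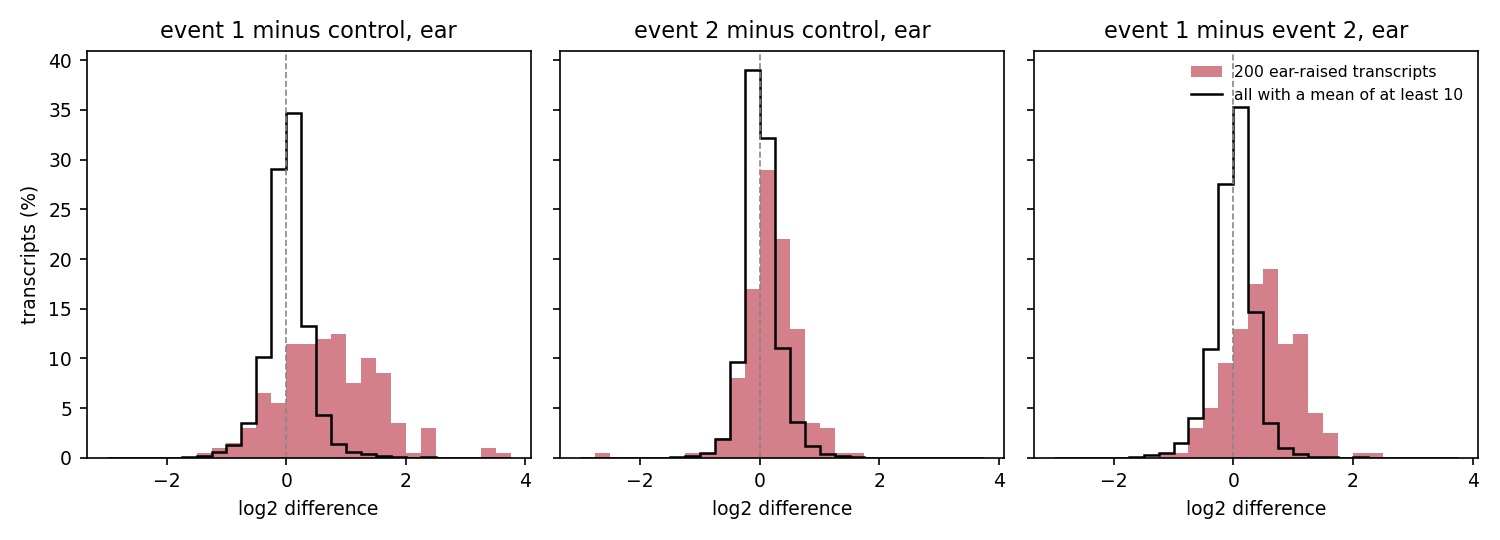
Share of transcripts, in percent, by log2 difference in ear for event 1 minus control (left), event 2 minus control (middle) and event 1 minus event 2 (right), with filled bars for the 200 ear-raised transcripts and a black outline for all expressed transcripts. The filled bars are shifted to the right of the outline by most in event 1 minus control (median 0.66), and by least in event 2 minus control (median 0.19), and the control libraries in the left and middle panels also chose the transcripts.

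In ear inflorescence neither event differed from control in a member that limma called. For event 1 the log2 difference was above 0 for 127 of the 200, with a median of 0.18, against 43.8% above 0 and a median of -0.02 among the expressed transcripts. The median was -0.09 with 71 above 0 without event 1 ear inflorescence replicate 2, and 0.62 without replicate 1. It was 0 without control ear inflorescence replicate 2 and 0.39 without control ear inflorescence replicate 3, so no direction is given. None was called, against 0.0574% of all transcripts. At an unadjusted p under 0.05 there were 17, against 2.79%, and edgeR called 5, against 0.0875%, and DESeq2 0, against 0.0326%. Event 1 ear inflorescence lay above control without overlap for 7 of the 200, against 1.54%, and below for 6, against 1.44%. For event 2 it was above 0 for 160, with a median of 0.40, against 49.3% above 0 and a median of -0.01 among the expressed transcripts. The median was 0.26 without event 2 ear inflorescence replicate 1 and 0.68 without control ear inflorescence replicate 3. None was called, against 0.0666%. At an unadjusted p under 0.05 there were 34, against 4.36%, and edgeR called 20, against 0.367%, and DESeq2 4, against 0.0653%. Event 2 ear inflorescence lay above control without overlap for 19, against 8.06%, and below for 0, against 12.5%. Event 1 ear inflorescence replicate 1 was the lowest of its group for 154 of the 200.

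The summed levels of 2 marker lists were higher in every event 1 ear than in any other ear. The summed normalized count of 14 photosynthetic transcripts was between 39371 and 43335 in event 1 ear, between 28522 and 34495 in event 2 ear, and between 28899 and 36214 in control ear, and none of the 14 was at the floor in all libraries. The sum of 6 senescence and drought transcripts, rab17 among them, was between 21804 and 22690.2 in event 1 ear, between 16966 and 19635 in event 2 ear, and between 17428 and 19590.1 in control ear. Taken singly, 5 of the 14 photosynthetic and 3 of the 6 senescence and drought transcripts were higher in every event 1 ear than in any other ear. So were 2 of 15 floral organ, 1 of 21 inflorescence meristem, 0 of 18 kernel storage and 2 of 8 pollen transcripts. Among the expressed transcripts, event 1 ear lay above control ear without overlap for 12.5% and above event 2 ear for 9.18%. The share above both was not counted. The largest share of the photosynthetic sum was that of lhcb3, at 22892, 21804 and 24932 in event 1 ear. It had 19386, 16796 and 16145 in event 2 ear, and 18735, 21966 and 15759 in control ear. Its event 1 and control ear values overlapped. The drought marker vp14 had 351, 378 and 448 in event 1 ear, 516, 545 and 467 in event 2 ear, and 392, 498 and 651 in control ear. The 21 inflorescence meristem transcripts summed to between 16559 and 17451 in event 1 ear, between 16284 and 17993 in event 2 ear, and between 17509.9 and 21735 in control ear. The part of the stage or tissue makeup of the sampled ears in these differences was not tested.

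The 200 identifiers are fewer than 200 independent measurements. Reads that matched several transcripts were counted on each, and 27 members in 13 sets had alike counts in all 18 libraries, within 0.25 on the log2 scale after 5 reads were added. Among the alike pairs, 3 were identical in every library. With 1 identifier taken per set, 181 of 186 were called higher in ear in event 1 and 175 of 186 in event 2. Some members also lie side by side in the gene order of the assembly Zm-B73-REFERENCE-NAM-5.0. Of 125 members with a place there, 12 pairs had at most 5 genes between them and 6 pairs were direct neighbours, such as GRMZM2G104616 with GRMZM2G104610 on chromosome 9 and Natterin-4 with GRMZM2G114945 on chromosome 2. GRMZM2G009465, called in event 1 ear against control, and GRMZM2G003909 lie on chromosome 1 with 4 genes between them. GRMZM2G003909 had 270, 510 and 337 normalized counts in event 1 ear, 262, 32.4 and 60 in event 2 ear, and 59.7, 23.8 and 20.1 in control ear. It was chosen for its place beside GRMZM2G009465 after its values had been seen.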

How the data were processed

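RNA from 18 maize samples, 3 per group, was sequenced in reads of 50 bases. Per the submitters' notes, CASAVA 1.8.2, Bowtie 0.12.8 and DESeq were used. The authors aligned reads to transcripts of the B73 reference line. A read that matched up to 10 transcripts was counted on each of them, and reads with more matches were ignored. The counts were then normalized. The deposited values are that normalized signal for 76612 identifiers. Whole reads were recovered from it by dividing by each library's step, and 580985 of 580985 low values came out whole within 0.1 reads.

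Limma 3.58.1 in R 4.3.3 was fitted across all genes to log2(normalized count + 1) with 6 group means and a variance trend. The count tests on recovered reads were edgeR 4.0.16 and DESeq2 1.42.0. The scripts were tested on simulated data. Tables and figures used Python 3.11.15, pandas 2.3.3, numpy 2.4.6 and matplotlib 3.10.9. Counting intervals and floors cover counting error only. No per-sample column was left unused, and replicates were biological per the labels.

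The members, gene lists and tests were chosen with earlier results of these data known. Transcripts named are the 10 with the highest ratio, the 5 highest in control ear, up to 5 called in neither event, those with the smallest p between the events, the edges of the set, and those with a functional symbol. Groups by gene description and promoter motifs were planned, but the tables used here hold neither descriptions nor sequences. RefSeq served for names and gene order only, since its assembly differs from the transcriptome the authors used, and no coordinates or sequences are given. Alternatives tried were a pseudocount of 0.1, a mean filter of 10, a fit to the compared samples alone, a replicate block, unmoderated limma, quantile normalization, DESeq2, edgeR, an adjusted p under 0.05, leaving out samples, and other rules for choosing the 200. One more, a mean filter on the control samples alone, was added after seeing the data.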

Additional observations from a re-analysis of the deposited data

How the results depend on the processing

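The counts of members called higher in ear were between 182 and 192 in event 1 when each event 1 sample was left out in turn. They were between 173 and 188 in event 2 when each event 2 sample was. Over all transcripts the calls in either direction were between 7056 and 11610 in event 1 and between 3598 and 6015 in event 2. When only the samples compared were fitted, 83 members were called higher in event 1 and 59 in event 2, as fewer samples set the spread. Over all transcripts these shares were 1.25% and 0.850%. That fit called 1 member between the events in ear and 0 between event 1 and control in ear, against 135 and 153 over all transcripts. EdgeR called 29 members between the events in ear, 21 in ear inflorescence and 29 for the tissue difference, 72 and 11 for events 1 and 2 against control in ear, and 5 and 20 in ear inflorescence. DESeq2 called 1, 2 and 2 between the events, 21 for event 1 against control in ear and 4 for event 2 against control in ear inflorescence. The shares over all transcripts for edgeR and DESeq2 are given with each comparison above. A pseudocount of 0.1 gave 2 calls between the events in ear inflorescence, 1 for the tissue difference, 0 for event 1 against control in ear, and 2 and 1 for events 1 and 2 against control in ear inflorescence, and it moved the median log2 difference in event 2 to 5.63 from 5.05. Over all transcripts that pseudocount gave 48, 16, 86, 45 and 54 calls in these comparisons. Without event 2 ear replicate 2 and event 1 ear inflorescence replicate 1 together, 5 were called for event 1 against control in ear, and 1 and 1 for events 1 and 2 against control in ear inflorescence. Over all transcripts these counts were 157, 128 and 98. An adjusted p under 0.05 left 1 for event 1 against control in ear, against 50 over all transcripts. Each sample of the groups compared was also left out in turn. For event 1 against control in ear this gave between 1 and 2 calls, against 53 to 104 over all transcripts. For event 2 against control in ear it gave 0 to 1, against 45 to 52. In ear inflorescence against control it gave 0 to 2 in event 1, against 88 to 113, and 0 to 1 in event 2, against 71 to 130. Between the events in ear inflorescence it gave 0 to 2, against 73 to 139. For the tissue difference it gave 0 to 3, against 15 to 52. For all these the cause was not tested.

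Of the 200 chosen, 117 were chosen again with 10 added to each mean in the ratio, and between 172 and 191 when a control sample was left out. In event 2, edgeR and DESeq2 gave log2 differences of -2.69 and -2.81 for GRMZM2G181202, -2.76 and -2.87 for GRMZM2G146551, -1.14 and -1.30 for GRMZM2G419209, and -1.75 and -1.91 for GRMZM2G127106. Without event 2 ear inflorescence replicate 1 or 3, limma gave -0.24 for GRMZM2G181202 and -0.21 for GRMZM2G146551, and without replicate 2 it gave 3.88 and 3.98. The replicate numbers were not used to pair the samples. Of 45 pairs of same-numbered samples, 7 had a correlation over 0.1, within a range from -0.515 to 0.253. A weak pairing could go unseen in such correlations. With a replicate block, 192 and 184 members were called higher in ear in events 1 and 2, and 2 in place of 3 for event 1 against control in ear. Over all transcripts the block gave 10279, 5513 and 86 calls in either direction. Of the 200, 70 were at the floor in control ear inflorescence, where the control ear mean and the 1 added to each mean weigh most in the ratio.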

Other observations

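Transcripts seen in 1 library alone were counted over the ear inflorescence. In event 2 ear inflorescence replicate 2, 96 transcripts had at least 30 reads and at most 3 in each of the other 8 ear inflorescence libraries, and 54 of these had no read in those 8. The 5 members called in neither event are among the 54. Outside the set, the pollen marker expb9 had 310 normalized counts in that library, mgs1 had 68.2 and expb11 had 24.3. The pollen markers ms8 and ms26 had 2.31 and 0 there.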
